A study of Bubalus bubalis with 12 samples.

Results

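The genes described here carry the interferon response and antigen presentation, measured in the corpus luteum (CL) of buffalo cows during the first hours after a luteolytic dose of a prostaglandin. They were chosen by their symbols, as families of the pathway. Members were all genes with a probe set of their own whose symbol belonged to the cattle major histocompatibility complex (BOLA), to the IFI, IFIT, IFITM, IRF, ISG, MX1/MX2, OAS, STAT or GBP families, or was B2M, TAP1, TAP2, TAPBP or RSAD2. This gave 52 genes, from 77 probe sets, among 9155 genes with a single symbol on the array. Where a gene had several probe sets, the one with the highest mean level over the 12 arrays stood for it. The members comprised 7 class I and peptide transport genes, 13 class II genes and 21 interferon-induced effector genes. The others were 6 interferon regulatory factors (IRF) and 5 STAT factors. Groups were set by symbol, except that IFI30 was placed with class II for its function. CD74, CIITA, IRF1 and OAS1 are not analysed here.

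All CL came from cows with normal cycles, on day 11 of the estrous cycle. The 0 h controls received no treatment (4 animals), and the other cows received 500 µg cloprostenol, a synthetic PGF2α analogue, intramuscularly and gave their CL 3 h (2 animals, numbered 1 and 3), 6 h (3 animals) or 18 h (3 animals) later. The question was how the transcripts of the CL change with time post PGF2α. RNA of the whole gland was hybridised to the GeneChip Bovine Genome Array, 1 array per animal, so luteal, endothelial, stromal and immune cells were measured together, with probes designed on cattle sequence.

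Interferons are secreted by infected or activated cells and act through cell surface receptors, JAK kinases and STAT factors, which together with IRF9 switch on a large set of antiviral genes. Most IRF factors regulate the interferon genes or their targets. Class I molecules, built of a heavy chain and B2M, are found on nearly all nucleated cells and show peptides that the TAP1-TAP2 transporter brings from the cytosol, with TAPBP (tapasin) as the loading bridge. Class II molecules show peptides from the endocytic route, mainly on macrophages, dendritic cells and B cells, and interferon γ raises both classes. In ruminants the CL is also a known target of interferon tau from the early conceptus, and macrophages gather in the gland as it regresses.

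Values are log2 levels as the authors deposited them, in which 1 unit is a 2-fold difference. Levels of different probe sets cannot be set against each other. A gene was called changed when its adjusted p (limma with Benjamini-Hochberg adjustment over all 24016 probe sets) was under 0.05, and differences from the fit are given ± its standard error. The tissue carried its label, as STAR lay between 14.08 and 14.91 and HSD3B1, the steroid dehydrogenase of progesterone synthesis, between 13.29 and 14.92 on the 12 arrays. Control replicates 1 and 4 were nearly alike (r = 0.997, 6 probe sets over 2-fold apart, against 220 to 1306 for the other pairs of a group). They were kept as 2 animals, as labelled in the main fit, and the members' counts against 0 h are also given with the pair averaged into 1 sample. Control replicate 3 stood apart in many of the genes described here, so results are given with and without it.

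Before any treatment, 1 of the 4 control CL carried high levels of most interferon-induced and class II genes. Control replicate 3 had the highest level of all 12 arrays for 35 of the 52 members (67.3%), where it was the highest array for 6.15% of all genes. For 28 of 52 members (53.8%) it lay at least 1 log2 unit above the mean of the other controls, against 2.8% of all genes. By group these were 9 of 13 class II genes, 13 of 21 effector genes, 3 of 6 IRF, 3 of 7 class I genes and 0 of 5 STAT factors. This compares 1 animal with 3, and is given as a description.

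Effector and DQ genes had the widest gaps over the mean of the other controls, 17.5-fold for BOLA-DQA5 (whose other controls were far apart), 11.6-fold for RSAD2, 11.2-fold for MX2, 10.6-fold for BOLA-DQB and 8.63-fold for ISG15. ISG15, a ubiquitin-like protein that is conjugated to other proteins, stood at 13.95 on control replicate 3, against 11.07, 10.51 and 10.95 on control replicates 1, 2 and 4. RSAD2 (viperin), an antiviral enzyme of the endoplasmic reticulum, was at 11.25 against 7.63, 7.67 and 7.82. MX2, a GTPase of the MX antiviral family, was at 9.81 against 6.14, 6.39 and 6.46. On these 3 probe sets the other 3 controls spanned less than 1 log2 unit, and control replicate 3 lay far outside them.

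MX1, the companion GTPase, had 12.57 on control replicate 3, against 10.07, 10.84 and 10.22 on the others. IFI44, a cytoplasmic interferon-induced protein, had 9.99 against 7.28, 7.37 and 7.36, and the guanylate-binding protein GBP5 had 10.47 against 7.94, 7.41 and 7.85. IFI44 and GBP5 each have 3 further probe sets, and on all of these control replicate 3 was the highest of the 12 arrays. The members for which it was not above the mean of the other controls were STAT6, BOLA-N, OASL, ISG12(B) and IFITM5. IFITM5, known from mouse and human as a bone protein of the IFITM family, was the only one at least 1 log2 unit lower (5.90 against 7.15, 7.52 and 6.85).

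**Figure D1:**
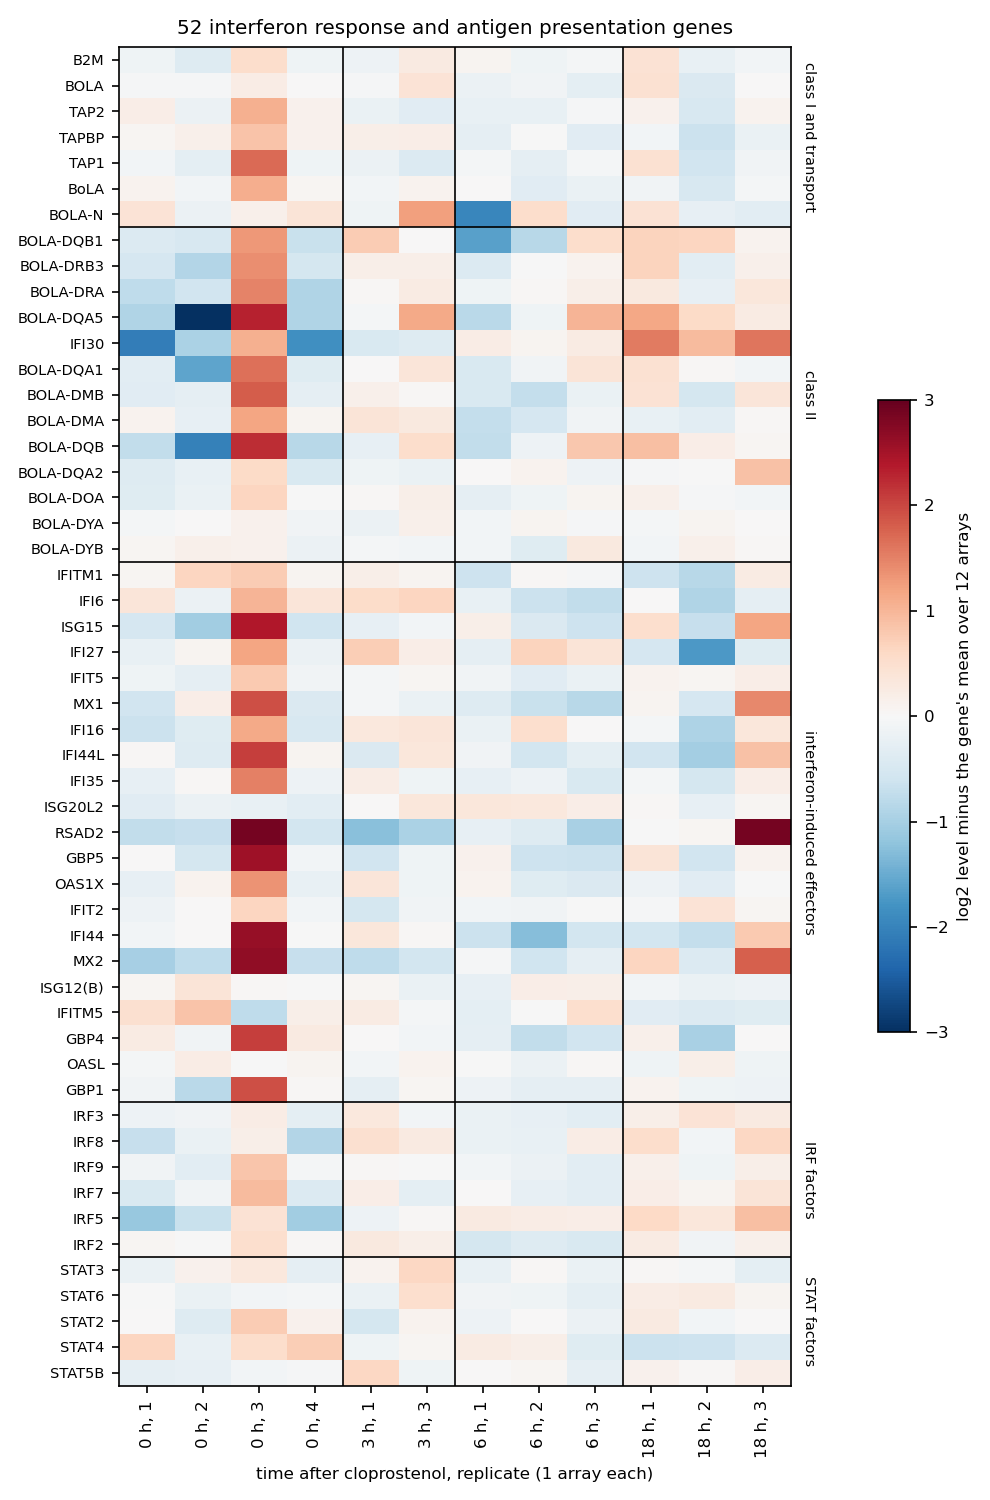
Level of each of the 52 genes (rows, grouped by role) on each of the 12 arrays (columns, by hours post PGF2α and replicate number), as the log2 level minus that gene's mean over all arrays. Red is above and blue below the mean, and the column of control replicate 3 (0 h, 3) is the highest for 35 of 52 genes.

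Genes outside the family name rule moved with that array. CXCL10 and CXCL11, chemokines induced by interferon that draw T cells, were at 12.11 and 9.01 on control replicate 3, where the other controls had 7.68 to 8.43 and 4.68 to 5.04. The mean of 14 monocyte and macrophage markers was 9.56 there, against 8.05 to 8.15 on the other controls, and that of 8 pan leukocyte markers was 9.29, against 7.99 to 8.09. The mean of 11 luteal markers was 12.70, against 13.23 to 13.44, with the luteal hormone INSL3 at 9.48 against 13.18 to 13.45. INSL3 is among the 11 markers and was picked after its values were seen. It weighs on this mean, which does not show that every marker was lower. The 4 measured interferon genes varied little. IFNG, the interferon γ gene, was at 4.42 on control replicate 3, its highest level of the 12 arrays, against 4.24, 4.30 and 4.23 on control replicates 1, 2 and 4, and IFNB1 was at 4.19 against 3.95, 4.08 and 4.46, both near the low end of the scale. IFNT2 was at 6.44 against 6.23, 6.61 and 6.26 and IFNAC at 6.96 against 7.08, 7.02 and 6.91. In whole tissue more cells of a type and more RNA per cell cannot be told apart, and the part of these cells in the members' levels was not tested.

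**Figure D2:**
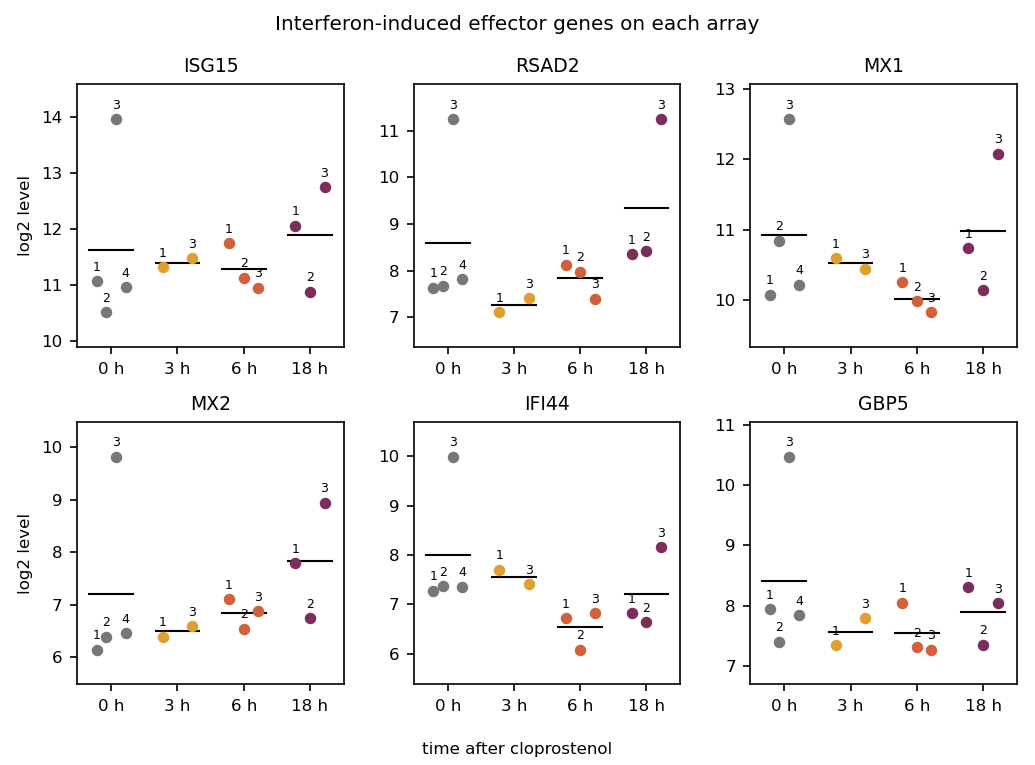
Log2 level (vertical axis, its own range per gene) of 6 interferon-induced effector genes on each array by time post PGF2α (horizontal axis). Points are arrays with their replicate number and lines are group means. Control replicate 3 lies above the other 3 controls in each panel, and 18 h replicate 3 equals it for RSAD2 at 11.25.

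With all arrays in the fit, few members were called changed post PGF2α. At 3 h 0 of 52 were called, where 0.0328% of all genes were, and 3 members had an unadjusted p under 0.05, as did 10.9% of all genes. At 6 h 3 of 52 were called, or 5.77%, where the background over all genes was 14.2%. ISG20L2 was up regulated, and IRF2 and IFI6 were down regulated. At 18 h 3 of 52 were called again (5.77%, background 15.9%). IFI30 and IRF5 were up regulated and STAT4 was down regulated. With control replicates 1 and 4 averaged into 1 sample the calls were ISG20L2 and IRF2 at 6 h (background 7.01%) and STAT4 at 18 h (background 9.99%), so IFI6, IFI30 and IRF5 were not called. The share of members called thus lay below the share of all genes at both times. The moderated F test over the 3 times called ISG20L2 and IRF2 (3.85%, background 14.1%), and 0 with controls 1 and 4 averaged.

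IFI30 encodes the lysosomal thiol reductase GILT, which unfolds disulfide-bonded proteins for class II presentation. Its levels were 7.64, 8.75, 10.77 and 7.86 at 0 h (replicates 1 to 4), 9.24 and 9.31 at 3 h, 9.92, 9.79 and 9.96 at 6 h, and 11.27, 10.65 and 11.31 at 18 h. Controls other than replicate 3 lay below all 8 treated arrays, and the 3, 6 and 18 h arrays did not overlap each other. At 18 h it was 5-fold higher than at 0 h (log2 2.32 ± 0.58, adjusted p = 0.0229, limma). In the fit without control replicate 3 the difference was 2.99 ± 0.26 at 18 h (adjusted p = 0.000121), 7.96-fold, and 1.81 ± 0.26 at 6 h (adjusted p = 0.00196). The call at 18 h was lost without control replicate 1, 2 or 4 and without 18 h replicate 1 or 3, with adjusted p between 0.000121 and 0.0870 over all alternatives.

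IRF5, a factor of macrophages and other myeloid cells that drives inflammatory cytokine genes, followed a similar course. It was at 6.84, 7.30, 8.42 and 6.94 at 0 h, 7.83 and 8.01 at 3 h, 8.26, 8.21 and 8.17 at 6 h, and 8.57, 8.31 and 8.88 at 18 h. Only control replicate 3 reached into the range of the treated arrays. At 18 h the level was 2.32-fold that at 0 h (log2 1.21 ± 0.31, adjusted p = 0.0256), and without control replicate 3 it was 1.56 ± 0.16 higher (adjusted p = 0.000225) and at 6 h 1.18 ± 0.16 higher (adjusted p = 0.00142). Of its 2 other probe sets, 1 was called at 18 h as well (log2 0.82 ± 0.17, adjusted p = 0.00988) and the other was not (0.27 ± 0.16). The call of the main probe set was lost under the same 5 omissions as that of IFI30.

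STAT4, the factor downstream of interleukin 12 in T and NK cells, was the gene down regulated at 18 h. Its levels were 8.46, 7.59, 8.35 and 8.56 at 0 h, 7.69 and 7.87 at 3 h, 8.05, 8.0 and 7.45 at 6 h, and 7.18, 7.19 and 7.40 at 18 h. All 18 h arrays lay below all controls, 1.97-fold on average (log2 -0.98 ± 0.22, adjusted p = 0.0145). With control replicate 3 omitted the value was -0.94 ± 0.24 (adjusted p = 0.0253). Leaving out 18 h replicate 1 or 2 ended the call. With control replicate 3 left out and controls 1 and 4 averaged, the calls of STAT4, ISG20L2 and IRF2 were lost too. STAT4 has a second probe set, which stayed between 3.40 and 3.63 on the 12 arrays.

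ISG20L2 is a nuclear exonuclease of ribosome production that is named for its likeness to the antiviral gene ISG20. It was the member with the lowest F test p, at 8.52, 8.68, 8.64 and 8.55 at 0 h, 8.86 and 9.19 at 3 h, 9.20, 9.18 and 9.05 at 6 h, and 8.90, 8.62 and 8.91 at 18 h. The 6 h arrays were above all controls, by 1.46-fold (log2 0.55 ± 0.11, adjusted p = 0.0102), and this call held with each of the 12 arrays left out. At 18 h the difference was 0.21 ± 0.11 and was not called.

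IRF2, which competes with IRF1 for interferon response elements and mostly represses them, was at 7.91, 7.83, 8.35 and 7.87 at 0 h, 8.12 and 8.01 at 3 h, 7.32, 7.45 and 7.38 at 6 h, and 8.07, 7.72 and 8.0 at 18 h. The 6 h arrays lay below all 9 others (log2 -0.61 ± 0.13 against 0 h, adjusted p = 0.0161). Against 3 h IRF2 was at -0.68 ± 0.16 (adjusted p = 0.112), and at 18 h it was 0.55 ± 0.14 above 6 h (adjusted p = 0.139), neither of which was called. When control replicate 3 was left out the call at 6 h stood (-0.49 ± 0.11, adjusted p = 0.0133), and that against 3 h was made (adjusted p = 0.0419). Leaving out 6 h replicate 1 ended the call of IRF2 at 6 h against 0 h. The second, dimmer probe set of IRF2 was not called at 6 h (-0.28).

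IFI6, a mitochondrial and endoplasmic reticulum protein that delays cell death, was at 12.41, 11.87, 13.07 and 12.41 at 0 h, 12.61 and 12.69 at 3 h, 11.83, 11.42 and 11.31 at 6 h, and 12.07, 11.16 and 11.78 at 18 h. The 6 h arrays lay below all controls, the nearest pair being 11.83 at 6 h and 11.87 in control replicate 2. The difference was -0.92 ± 0.27 (adjusted p = 0.0485), and without control replicate 3 it was -0.71 ± 0.24 and no longer called (adjusted p = 0.0701). Of the 12 omissions of 1 array, 7 ended the call (control replicates 1, 3 and 4, all 3 arrays at 6 h and 18 h replicate 3).

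**Figure D3:**
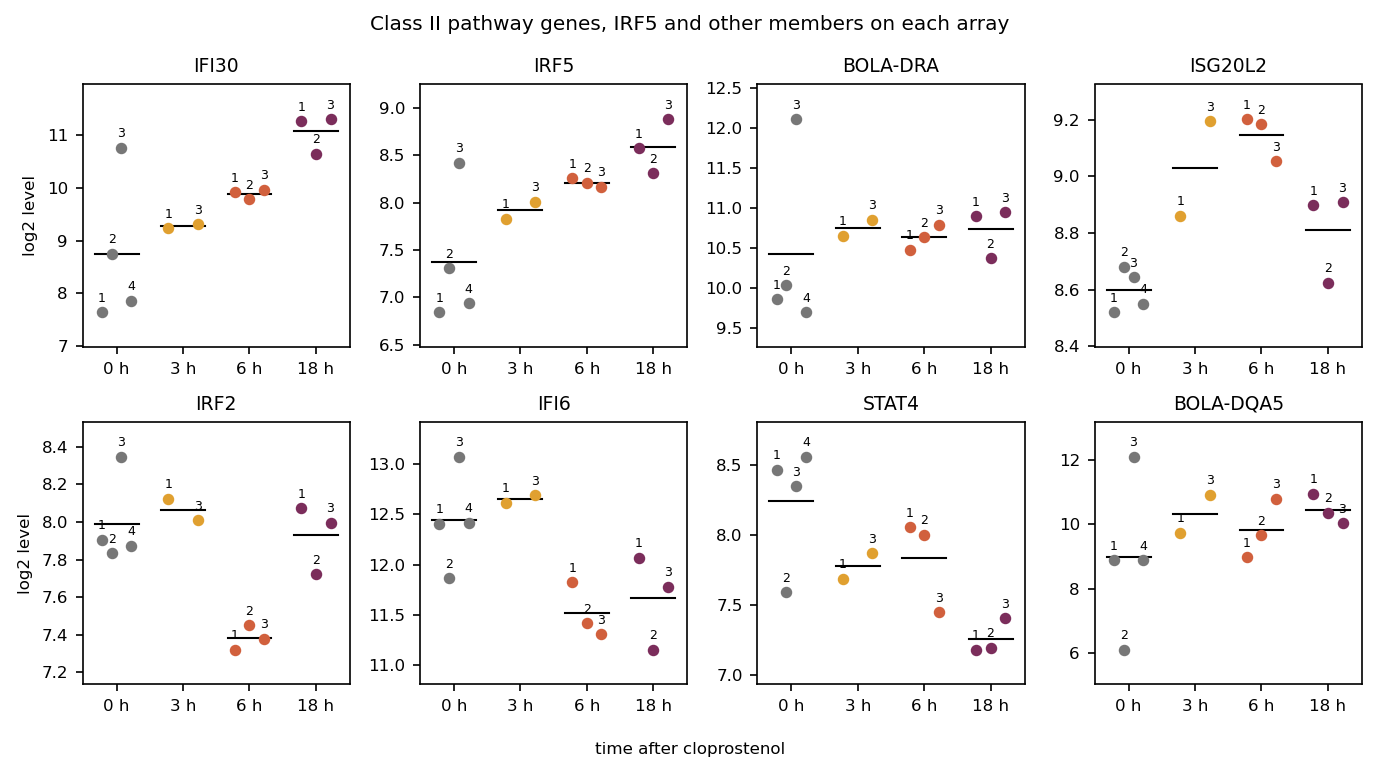
Log2 level (vertical axis, its own range per gene) on each array by time post PGF2α (horizontal axis) for the 6 genes called at 6 or 18 h against 0 h and for BOLA-DRA and BOLA-DQA5. Points are arrays with their replicate number and lines are group means. For IFI30 and IRF5 the controls other than replicate 3 lie below all treated arrays, and for IRF2 the 6 h arrays lie below all others.

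The counts differed without control replicate 3. At 6 h 5 of 52 members were called (9.62%, background 18.3%), namely IFI30, IRF5, BOLA-DRA and ISG20L2 higher and IRF2 lower. At 18 h 12 of 52 were called (23.1%, background 19.5%), 10 of them higher, where 8.88% of all genes were called higher. The others, STAT4 and IFITM5, were lower. IFITM5 had its lowest level on control replicate 3 (5.90), so leaving that array out makes its difference from 0 h more negative. At 3 h the count was 0 (background 0.317%), with 12 members at an unadjusted p under 0.05, as were 14.3% of all genes. With controls 1 and 4 averaged as well, 3 members were higher at 6 h (background 8.91%) and 4 higher and 1 lower (IFITM5) at 18 h (background 10.8%). With both control replicate 3 and 18 h replicate 3 left out there were 4 higher and 2 lower at 6 h (background 17%) and 3 higher and 2 lower at 18 h (background 14.1%). IFI30, IRF5 and BOLA-DRA were called higher at 6 h and 18 h in all 3 of these fits.

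Class II genes and IRF factors gained calls when control replicate 3 was left out. With all arrays 1 of 13 was called at 18 h (IFI30), and the median difference over the 13 was 0.30, against -0.02 over all genes. After control replicate 3 was left out there were 5 of 13 up regulated (38.5%, background 19.5%, or 8.88% for higher genes alone) and the median was 0.81, against -0.04 over all genes. Leaving out that array raises the difference from 0 h of every gene that was high on it. The 5 were IFI30, BOLA-DRA, BOLA-DRB3, BOLA-DQA5 and BOLA-DQB. At 6 h IFI30 and BOLA-DRA were up regulated (15.4%, background 18.3%).

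BOLA-DRA, the DR α chain, was at 9.86, 10.03, 12.11 and 9.70 at 0 h, 10.65 and 10.85 at 3 h, 10.48, 10.64 and 10.79 at 6 h, and 10.89, 10.37 and 10.95 at 18 h. All 8 treated arrays lay above control replicates 1, 2 and 4 and below control replicate 3. With all arrays it was not called at any time (at 18 h log2 0.31 ± 0.46, adjusted p = 0.742). Without control replicate 3 it was 1.71-fold higher at 6 h (0.77 ± 0.16, adjusted p = 0.0111) and 1.83-fold higher at 18 h (0.88 ± 0.16, adjusted p = 0.00521). It was still called at both times when controls 1 and 4 were in addition averaged (adjusted p = 0.0478 at 6 h and 0.0259 at 18 h), which leaves 2 control samples.

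The DR β chain gene BOLA-DRB3 was at 10.99, 10.61, 12.89 and 10.97 at 0 h, 11.67 and 11.67 at 3 h, 11.09, 11.50 and 11.59 at 6 h, and 12.16, 11.19 and 11.66 at 18 h. As for BOLA-DRA, the treated arrays fell between the 3 alike controls and control replicate 3. In the fit without control replicate 3 it was called at 18 h (0.81 ± 0.22, adjusted p = 0.0340). It was not called once controls 1 and 4 were averaged as well.

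The DQ genes varied widely among control animals. BOLA-DQA5 was at 8.88, 6.12, 12.09 and 8.88 at 0 h, 9.74 and 10.92 at 3 h, 8.99, 9.66 and 10.80 at 6 h, and 10.95, 10.36 and 10.03 at 18 h. The controls thus spanned more of the scale than all 8 treated animals, with control replicate 2 lowest and control replicate 3 highest of the 12. BOLA-DQB showed the same ends, 6.19 on control replicate 2 and 10.42 on control replicate 3, with 7.47 and 7.38 on control replicates 1 and 4, 7.97 and 8.75 at 3 h, 7.48, 8.05 and 9.03 at 6 h, and 9.12, 8.42 and 8.28 at 18 h. With control replicate 3 left out BOLA-DQA5 and BOLA-DQB were called at 18 h (adjusted p = 0.0391 and 0.0341), and with controls 1 and 4 averaged as well BOLA-DQA5 was called and BOLA-DQB was not (adjusted p = 0.0469 and 0.0570). On its main probe set BOLA-DQA1 had its lowest level (7.85) and its highest (11.07) on the same 2 arrays. Its other probe set was also highest on control replicate 3 (9.30). That probe set was lowest on 6 h replicate 1 (6.87), with control replicate 2 at 7.57. These probe sets are named for DQ genes of near-identical sequence, so their signals may share transcripts and are uncertain as single genes.

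The non-classical class II genes, whose products edit the peptide load, were not called. BOLA-DMB was at 10.80 on control replicate 3 and between 8.28 and 9.41 on the other 11 arrays, and BOLA-DMA was at 9.53 and between 7.65 and 8.74. BOLA-DOA lay between 6.12 and 7.13. BOLA-DYA and BOLA-DYB, a ruminant pair known from dendritic cells in cattle and sheep, stayed between 4.13 and 4.82 on every array, near the low end of the scale.

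**Figure D4:**
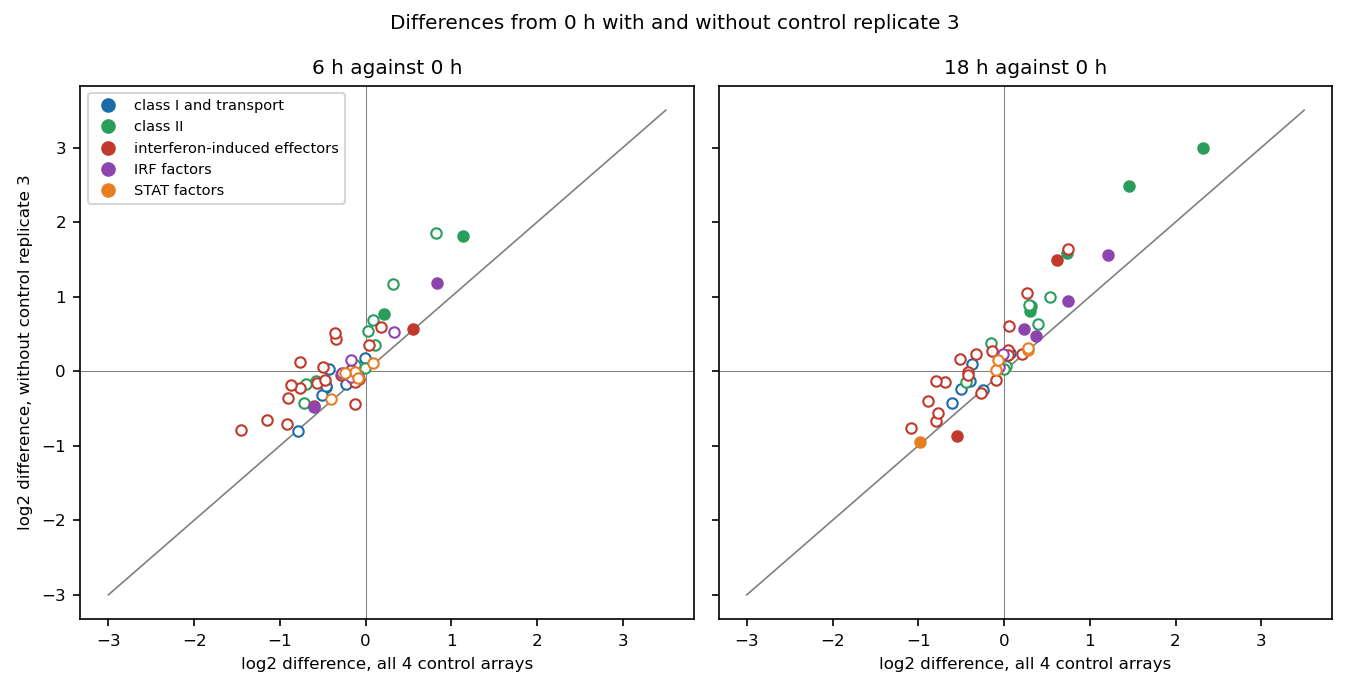
Log2 difference from 0 h of the 52 genes with all 4 controls (horizontal axis) and without control replicate 3 (vertical axis), at 6 h (left) and 18 h (right). Filled points were called without control replicate 3 (5 at 6 h and 12 at 18 h), open points were not, colours give the role, and the diagonal marks equal values.

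Class I and peptide transport genes gave no call at any time, with or without control replicate 3. At 6 h 7 of 7 and at 18 h 6 of 7 had differences under 0 in the fit of all arrays, with medians of -0.46 and -0.38, and without control replicate 3 the medians were -0.20 and -0.14. Over all 9155 genes with all arrays 5353 had differences under 0 at 6 h and 4932 at 18 h, with medians of -0.05 and -0.02. B2M was near the top of the scale, at 14.21, 13.96, 14.86 and 14.23 at 0 h, 14.18 and 14.62 at 3 h, 14.43, 14.22 and 14.28 at 6 h, and 14.77, 14.11 and 14.26 at 18 h. The groups overlapped, and the difference at 18 h was 0.07 ± 0.21 (adjusted p = 0.896).

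TAP1, a subunit of the peptide transporter, was at 9.72, 9.50, 11.50 and 9.67 at 0 h, 9.63 and 9.38 at 3 h, 9.74, 9.52 and 9.74 at 6 h, and 10.27, 9.23 and 9.68 at 18 h. Apart from control replicate 3 and 18 h replicate 1 all arrays lay between 9.23 and 9.74. The largest difference from 0 h was -0.60 ± 0.47 (3 h, adjusted p = 0.720). TAPBP came closest to a call among class I genes. It was at 10.69, 10.79, 11.48 and 10.75 at 0 h, 10.80 and 10.83 at 3 h, 10.35, 10.62 and 10.29 at 6 h, and 10.54, 9.99 and 10.44 at 18 h. The 6 h and 18 h arrays lay below all controls, and the difference at 18 h was -0.61 ± 0.20 (adjusted p = 0.0672). Both BOLA heavy chain genes of the annotation (symbols BOLA and BoLA, with different gene identifiers) and BOLA-N were not called, and their sequences are close enough that their probe sets may share transcripts.

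Among the 21 effector genes 2 were called at 6 h with all arrays (9.52%, background 14.2%) and 0 at 18 h (background 15.9%). The 2 were IFI6 and ISG20L2, and ISG20L2 is in this group by its symbol only. IFI30, which was called at 18 h, was counted with class II and not here. ISG15, MX1, MX2 and RSAD2 were not called at any time against 0 h with all arrays. At 18 h these genes separated the animals of the group. RSAD2 was at 7.11 and 7.41 at 3 h, 8.12, 7.98 and 7.40 at 6 h, and 8.35, 8.42 and 11.25 at 18 h (replicates 1 to 3). MX1 was at 10.59 and 10.44 at 3 h, 10.25, 9.98 and 9.82 at 6 h, and 10.74, 10.14 and 12.08 at 18 h. In both genes 18 h replicate 3 stood above all other treated arrays.

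MX2 was at 6.39 and 6.59 at 3 h, 7.11, 6.55 and 6.87 at 6 h, and 7.79, 6.74 and 8.94 at 18 h. ISG15 was at 11.31 and 11.47 at 3 h, 11.74, 11.13 and 10.95 at 6 h, and 12.05, 10.87 and 12.74 at 18 h. The 18 h arrays of both genes spread over more than 1 log2 unit, with replicate 3 highest and replicate 2 lowest. On 18 h replicate 3, 6 of 52 members lay at least 1 log2 unit above the mean of the other 2 animals (11.5%, against 0.699% of all genes). All 6 were effectors (RSAD2, MX2, IFI44L, MX1, IFI44 and ISG15), and the widest gap was 7.28-fold for RSAD2. By the probe sets that stood for the genes, none of the class II, class I, IRF or STAT genes was among them. Another probe set of BOLA-DQA2 was at 9.16 on 18 h replicate 3, against 5.19 and 5.11 on 18 h replicates 1 and 2. Another of BOLA-DQB1 was at 8.79 against 4.90 and 4.81. Both gaps were wider than that of RSAD2. The macrophage marker mean was 9.26 on 18 h replicate 3, against 9.27 and 8.67 on 18 h replicates 1 and 2. The pan leukocyte mean was 9.36 against 9.14 and 8.64, the dendritic mean 7.50 against 7.31 and 7.20, the B and plasma cell mean 6.86 against 6.78 and 6.62, and the T and NK cell mean 6.88 against 7.03 and 6.6. Their part in the effector levels was not tested.

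With this spread the adjusted p for 18 h against 0 h was 0.670 for RSAD2 (log2 0.75 ± 0.89), 0.967 for MX1 (0.06 ± 0.56), 0.689 for MX2 (0.62 ± 0.78) and 0.869 for ISG15 (0.27 ± 0.70). With control replicate 3 omitted MX2 alone of these 4 was called at 18 h (1.49 ± 0.42, adjusted p = 0.0354), and it was not called when 18 h replicate 3 was left out too or when controls 1 and 4 were averaged as well (adjusted p = 0.0608 and 0.102). Without 18 h replicate 3 alone, IFITM1 was called lower at 18 h, so that 0 members were higher and 2 (IFITM1 and STAT4) lower (background 10.9%). IFITM1, a membrane protein that blocks virus entry, was at 13.33, 13.92, 14.04 and 13.36 at 0 h, 13.45 and 13.37 at 3 h, 12.64, 13.31 and 13.24 at 6 h, and 12.65, 12.44 and 13.52 at 18 h.

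At 18 h the means of all 6 IRF factors were above those at 6 h, as were those of 4970 of 9155 genes. The median difference was 0.41, against 0.02 over all genes, and 0 of the 6 differences was called. With all arrays IRF5 was the only one called at 18 h. Without control replicate 3, 4 of 6 were up regulated at 18 h (66.7%, background 19.5%, or 8.88% for higher genes alone), namely IRF3, IRF5, IRF7 and IRF8. On control replicate 3 these genes lay above the mean of the other controls, so leaving it out raises their differences from 0 h. With all arrays the main probe set of IRF7 differed from 0 h by 0.24 ± 0.29 at 18 h. Its other probe sets differed by 0.08 ± 0.15 and -0.06 ± 0.10, so the rise of IRF7 rests on the main probe set. IRF8, a factor of macrophage and dendritic cell development, was at 8.38, 8.87, 9.24 and 8.18 at 0 h, 9.55 and 9.32 at 3 h, 8.88, 8.83 and 9.28 at 6 h, and 9.58, 8.98 and 9.68 at 18 h. Its 3 h arrays were above all controls, but with 2 arrays the difference of 0.77 ± 0.28 was not called (adjusted p = 0.412), and at 18 h without control replicate 3 it was 0.94 ± 0.22 (adjusted p = 0.0172). A second probe set of IRF8 stayed between 8.36 and 8.71 on the 12 arrays and differed from 0 h by 0.10 ± 0.10 at 18 h.

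IRF3, the constitutive factor that first switches on interferon β, was at 10.06, 10.11, 10.43 and 9.93 at 0 h, 10.52 and 10.13 at 3 h, 10.02, 9.97 and 9.89 at 6 h, and 10.40, 10.62 and 10.49 at 18 h. It was at 0.37 ± 0.13 at 18 h (adjusted p = 0.0937) and, without control replicate 3, at 0.47 ± 0.12 (adjusted p = 0.0230). IRF9, the DNA-binding subunit of the factor that type I interferon activates, was at 9.63 on control replicate 3 and between 8.46 and 8.96 on the other 11 arrays, and was not called. IRF3, IRF7 and IRF8 were not called when controls 1 and 4 were averaged in addition.

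Of the 5 STAT factors only STAT4 was called. STAT3, the interleukin 6 and acute phase factor, was at 10.70, 11.02, 11.20 and 10.62 at 0 h, 11.01 and 11.52 at 3 h, 10.66, 10.92 and 10.70 at 6 h, and 10.94, 10.84 and 10.60 at 18 h. The groups overlapped at all times, and the largest difference from 0 h was 0.38 ± 0.19 at 3 h (adjusted p = 0.539). STAT2, STAT5B and STAT6 differed from 0 h by -0.34 to 0.40 at the 3 times, with 0 calls.

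Between treated times 0 of 52 members were called in each comparison, where 0.229% of genes were called for 6 h against 3 h, 3.78% for 18 h against 3 h and 0.644% for 18 h against 6 h. At an unadjusted p under 0.05 there were 5, 4 and 6 members in these comparisons, where 15.2%, 20.1% and 13.8% of all genes were. For IFI30 the difference was 1.80 ± 0.69 between 18 h and 3 h (adjusted p = 0.220) and 1.18 ± 0.62 between 18 h and 6 h (adjusted p = 0.522). These fits share their estimate of the spread with the controls. When control replicate 3 was left out the first was called (1.80 ± 0.29, adjusted p = 0.00946) and the other was not (1.18 ± 0.26, adjusted p = 0.0756). All 13 class II genes had a higher mean at 18 h than at 6 h, by a median of 0.28, with 0 called. Over all genes 4970 of 9155 were higher, and the median difference was 0.02. Without 18 h replicate 3 it was 11 of 13 class II genes, and the DQ probe sets among them may share transcripts.

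A pair of DQ probe sets that did not stand for their genes showed a different pattern. The second probe set of BOLA-DQA2 was at 4.57, 4.95, 6.20 and 4.55 at 0 h, 5.13 and 4.75 at 3 h, 8.48, 9.06 and 4.78 at 6 h, and 5.19, 5.11 and 9.16 at 18 h. A probe set of BOLA-DQB1 was at 4.96, 5.03, 5.58 and 4.76 at 0 h, 4.92 and 5.10 at 3 h, 7.80, 7.49 and 5.24 at 6 h, and 4.90, 4.81 and 8.79 at 18 h. Both probe sets were picked out after their values were seen. In both, 6 h replicates 1 and 2 and 18 h replicate 3 stood far above the other 9 arrays. Neither was called (adjusted p = 0.204 for BOLA-DQA2 and 0.236 for BOLA-DQB1 at 6 h). On the main probe set of BOLA-DQB1 2 of the same animals had the lowest levels of the 12, with 10.52 and 11.31 on 6 h replicates 1 and 2, while 18 h replicate 3 had 12.24. The α and β chain signals were high in the same animals of different groups.

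**Figure D5:**
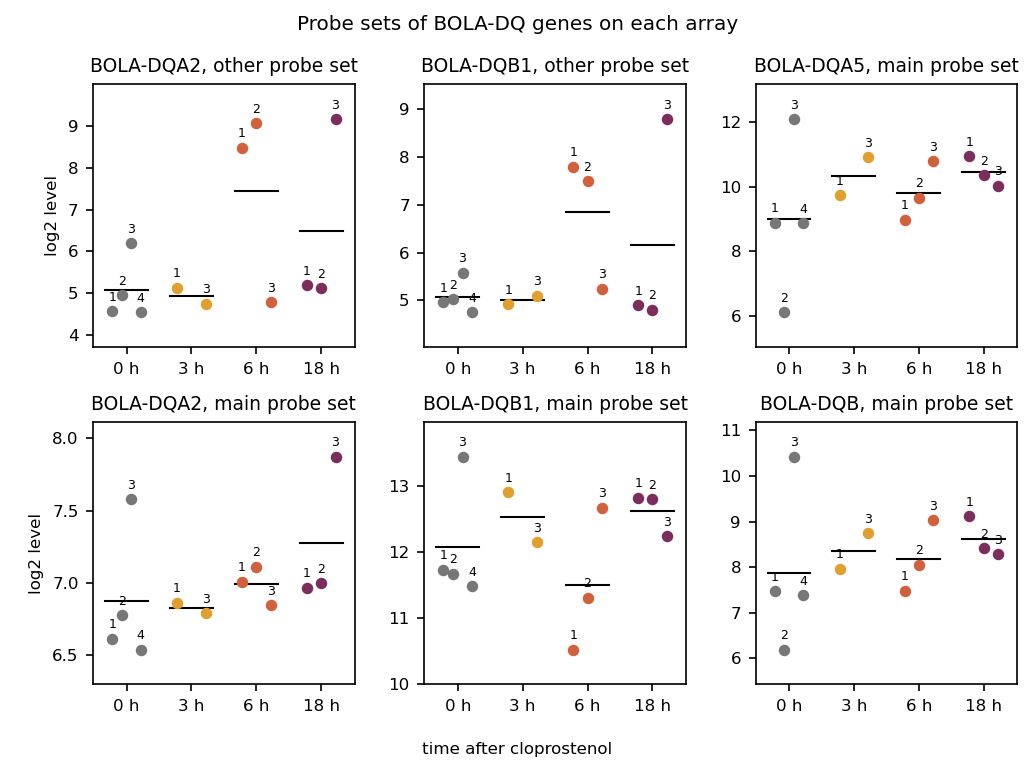
Log2 level (vertical axis, its own range per panel) of 6 probe sets of BOLA-DQ genes on each array by time post PGF2α (horizontal axis). Points are arrays with their replicate number and lines are group means. In the first 2 panels 6 h replicates 1 and 2 and 18 h replicate 3 lie between 7.49 and 9.16, and all other arrays between 4.55 and 6.20.

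The other genes of the pathway, which the naming rule did not take, were read from lists. Of 10 measured interferon receptor and signalling genes of 16 listed, 2 were up regulated and 1 down regulated at 6 h, and 3 up regulated at 18 h (backgrounds 14.2% and 15.9%, or 7.55% for higher genes at 18 h). With control replicate 3 left out 5 were up regulated at 18 h (background 8.88%). IFNAR1, a chain of the type I interferon receptor, was at 6.36, 5.89, 6.99 and 6.04 at 0 h, 7.49 and 6.64 at 3 h, 7.67, 7.15 and 7.49 at 6 h, and 7.97, 7.62 and 7.19 at 18 h. All 6 h and 18 h arrays lay above all controls, by 1.12 ± 0.29 at 6 h (adjusted p = 0.0300) and 1.27 ± 0.29 at 18 h (adjusted p = 0.0145). PTPN2, a phosphatase that switches off JAK and STAT proteins, was higher by 0.40 ± 0.10 at 6 h (adjusted p = 0.0303) and 0.58 ± 0.10 at 18 h (adjusted p = 0.00456). The calls of IFNAR1 and PTPN2 at 6 h were each lost with 6 of the 12 arrays left out in turn, and that of IFNAR1 at 18 h without 18 h replicate 1. The call of PTPN2 at 18 h was lost when the probe sets of each gene were averaged (adjusted p = 0.0960, limma). PIAS1, a SUMO ligase that restrains cytokine signalling, was lower at 6 h (-0.41 ± 0.09, adjusted p = 0.0164), but not without 6 h replicate 1 or 2.

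Among 8 sensors and adaptors that start interferon production, MAVS, the mitochondrial adaptor of the RNA sensors, was lower at 6 h (-0.58 ± 0.11, adjusted p = 0.00889) and 0 were called at 18 h. Of 27 further interferon-induced genes 0 were higher and 2 lower at 6 h and at 18 h (backgrounds 14.2% and 15.9%). Without control replicate 3 there were 1 higher and 3 lower at 6 h and 2 higher and 3 lower at 18 h (backgrounds 18.3% and 19.5%). TRIM21, the cytosolic antibody receptor, was at 7.86, 7.96, 8.07 and 7.93 at 0 h, 7.34 and 7.46 at 3 h, 6.88, 6.87 and 6.88 at 6 h, and 6.80, 7.17 and 7.23 at 18 h. All treated arrays lay below all controls (log2 -1.08 ± 0.11 at 6 h, adjusted p = 0.000604, and -0.88 ± 0.11 at 18 h, adjusted p = 0.000744), and the controls, replicate 3 among them, spanned little. LGALS9, a galectin, was lower at 6 h (-0.78 ± 0.22, adjusted p = 0.0447) and LGALS3BP, a secreted galectin-binding protein, at 18 h (-0.90 ± 0.15, adjusted p = 0.00313). The calls of TRIM21 and LGALS3BP stood under all 24 alternatives, and that of LGALS9 was lost under 15.

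Of 14 class I processing genes 2 were lower at 6 h and 3 lower at 18 h (backgrounds 7.66% and 8.35% for lower genes). At either time 0 were higher, and the median at 18 h was -0.34. PSMB9, a catalytic subunit that turns the proteasome into the immunoproteasome under interferon γ, was at 11.64, 11.49, 12.43 and 11.61 at 0 h, 11.68 and 10.87 at 3 h, 10.55, 10.52 and 10.85 at 6 h, and 10.86, 10.14 and 10.29 at 18 h. All 6 h and 18 h arrays lay below all controls, with differences of -1.16 ± 0.26 at 6 h (adjusted p = 0.0173) and -1.36 ± 0.26 at 18 h (adjusted p = 0.00631). PSMB10, another such subunit, was lower at 18 h (-0.91 ± 0.26, adjusted p = 0.0392), as was PSME1, a subunit of the proteasome activator (-0.52 ± 0.11, adjusted p = 0.00932). The call of PSMB9 at 18 h stood under all 24 alternatives and that of PSMB10 was lost under 13, and PSMB9 at 6 h was not called without 6 h replicate 1 or 2.

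Of 18 class II processing and co-stimulation genes 6 were higher and 0 lower at 18 h (median 0.06, background 7.55% for higher genes), and 1 was higher at 6 h (background 6.55%). Without control replicate 3 there were 4 higher and 1 lower at 6 h (backgrounds 7.74% and 10.5%) and 7 higher at 18 h (background 8.88%). Without 18 h replicate 3 there were 3 higher at 18 h (background 5.52%). LGMN, the lysosomal asparaginyl endopeptidase, rose by 1.42 ± 0.18 at 18 h (adjusted p = 0.000895) and 0.99 ± 0.18 at 6 h (adjusted p = 0.00773). CD86, a co-stimulatory ligand on antigen-presenting cells, was at 6.20, 6.15, 7.39 and 6.33 at 0 h, 7.07 and 6.90 at 3 h, 6.82, 7.01 and 7.12 at 6 h, and 8.42, 7.31 and 8.41 at 18 h (1.53 ± 0.32 at 18 h, adjusted p = 0.0102). CD40, the co-stimulatory receptor, was 1.29 ± 0.31 higher at 18 h (adjusted p = 0.0197). LGMN was called at both times under all 24 alternatives, CD86 was lost without 18 h replicate 1, and CD40 was lost under 8 alternatives.

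Marker lists of other cells were read in the same way. Backgrounds were 6.55% for higher and 7.66% for lower genes at 6 h, and 7.55% and 8.35% at 18 h. Of 14 monocyte and macrophage markers 1 was higher at 6 h (CD14) and 3 were higher at 18 h (CD14, CD68 and TYROBP). Without control replicate 3, the array with the highest mean of these markers, 8 were higher at 18 h (background 8.88%). Their mean per array was 8.05 to 9.56 at 0 h, 8.73 to 8.74 at 3 h, 8.40 to 8.72 at 6 h, and 8.67 to 9.27 at 18 h. CD14, the endotoxin co-receptor, was at 12.11, 11.68 and 12.74 at 18 h, against 8.64, 9.72, 10.85 and 8.94 at 0 h. Of 8 pan leukocyte markers 1 was higher and 1 lower at 6 h and 2 were higher at 18 h, of 19 T and NK cell markers 3 were lower at 6 h and 1 at 18 h, and of 4 B and plasma cell markers 0 were called. Of 3 dendritic cell markers 1 was lower at 18 h, and of 12 endothelial markers 4 were higher and 1 lower at 6 h and at 18 h. Of 11 luteal markers 7 were lower at 18 h, and their mean per array was 11.75 to 12.34 at 18 h, against 12.70 to 13.44 at 0 h. The part of these cells in the levels of IFI30, IRF5 and the class II genes was not tested.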

How the data were processed

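RNA of 12 CL, 1 array per cow, was hybridised to the GeneChip Bovine Genome Array. The deposited values are log2 levels, which the submitters' processing notes name as made by RMA (background correction, quantile normalization and summary per probe set); the labels name neither its software nor the chip definition. Quantile normalization gives all arrays nearly the same distribution (array medians 7.089 to 7.175), so a shift common to most genes would be removed, and the buffalo RNA was read by cattle probes, so a sequence mismatch can lower a level. The number of arrays limits the precision.

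Of 24128 probe sets, 112 control probe sets were left out and 24016 tested; 13292 have a single gene symbol in the platform annotation, 86 several and 10638 none. Of the probe sets with several symbols 22 name a member and were not used. Group means were fitted with limma 3.58.1 in R 4.3.3 (lmFit, contrasts, eBayes), all 4 groups sharing 1 estimate of the spread, with two-sided tests and Benjamini-Hochberg adjustment over all probe sets tested; a call is an adjusted p under 0.05. The scripts were tested on simulated data. Each cow is a separate animal by the labels, and groups came from the labels.

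Members and gene lists were chosen with earlier results of these data known. Named genes were those called against 0 h, those with the lowest F test p, and a fixed set (B2M, TAP1, BOLA-DRA, STAT3, IRF9, ISG15, MX1, MX2, RSAD2); lists gave at most 3 genes each by F test. Others, among them IFI44, GBP5, IFITM1, IFITM5, IRF7, IRF8, CXCL10, CXCL11, INSL3 and the BOLA-DM, BOLA-DO, BOLA-DQ, BOLA-DY and BOLA-DRB3 genes, were named after their values were seen. Alternatives were a filter on dim probe sets, other normalizations and fits, a replicate block, controls 1 and 4 averaged, and each array left out; 2 more, which leave out control replicate 3 together with another change, were added after seeing the data. A change of sign was counted as a reversal only where the value had been called. No genome sequence was used.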

Additional observations from a re-analysis of the deposited data

Results flagged for a closer look

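Control replicate 3 lay far above the other 3 controls for 16 of the 52 genes by a test for an outlying value, in which the gap to the nearest control is divided by the range of the 4 controls and compared with Dixon's critical value for 4 samples. The ratio was 0.969 for BOLA-DMB, 0.87 for BOLA-DQB1, 0.861 for BOLA-DRA, 0.833 for BOLA-DRB3 and 0.834 for the heavy chain gene BoLA. It was 0.888 for TAP1 and 0.866 for TAPBP in peptide transport and 0.858 for IRF2. Among effectors it was 0.968 for IFI44, 0.947 for RSAD2, 0.915 for MX2, 0.844 for IFI16, 0.842 for IFIT5, 0.841 for IFI35, 0.838 for ISG15 and 0.83 for GBP4. Over all genes 7.39% passed the same limit, and chance passes about 1 in 20 groups. Controls 1 and 4 were nearly alike, which narrows the range of the others.

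In the probe sets that did not stand for their genes, the second probe set of BOLA-DQA2 reached 9.159 and another of BOLA-DQB1 reached 8.791, both on 18 h replicate 3, above all 4 controls.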

How the results depend on the processing

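At 3 h the count of members called was 0 to 1 with each array left out (STAT6 without 3 h replicate 1). At 6 h, where 3 were called, it was 1 to 5, and at 18 h, where 3 were called, 0 to 12, the highest without control replicate 3. The F test, with 2, gave 0 to 8. For 6 h against 3 h and for 18 h against 3 h the counts were 0 to 1, and for 18 h against 6 h 0 to 0. With the replicate number as a block the counts were 0 at 6 h, 0 at 18 h (3.62% and 6.16% of all probe sets called, against 11.3% and 12.3% with no block) and 0 by the F test, and the adjusted p of the 6 called genes lay between 0.0515 and 0.0727. Over all probe sets the deviations of same-numbered arrays from their group means correlated little (r -0.26 to 0.191, over 0.1 in 3 of 15 pairs). The highest r was that of control replicate 3 with 18 h replicate 3. With 2 to 4 arrays per group this cannot decide whether the numbers pair the animals. Array weights, in which control replicate 3 had 0.577, gave 6 at 6 h, 7 at 18 h, 2 for 18 h against 6 h and 8 by the F test, while 23.7%, 23.4% and 2.2% of all probe sets were called in the first 3. With controls 1 and 4 averaged there were 1 at 18 h (7.73% of probe sets) and 0 by the F test. With arrays of the 2 groups only there were 1 at 18 h (14%), 1 for 18 h against 3 h and 1 for 18 h against 6 h. Without control replicate 3 and with controls 1 and 4 averaged there were 5 at 18 h (8.38%) and 1 for 18 h against 3 h. With control replicate 3 and 18 h replicate 3 both left out there were 6 at 6 h (13.5%), 5 at 18 h (11.1%), 2 for 18 h against 3 h and 6 by the F test. Leaving out dim probe sets, which kept 46 members, gave 4 by the F test. The cause of these differences was not tested. Of 1224 values of 17 named members under the alternatives 39 lost a call, 22 gained 1 and 0 reversed. Of 1287 values of 18 named genes of the lists 71 lost a call, 10 gained 1 and 0 reversed.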
